A study of Homo sapiens and Mus musculus with 56 samples.

Results

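Leukaemia lines that carry the KMT2A-AFF1 fusion were set against a B-lineage leukaemia line without it, in cells that had received solvent and no drug. The tested arrays were the 2 DMSO arrays of RS4;11 and the 2 DMSO arrays of SEM, and they were compared with the 3 DMSO arrays of REH, which makes 7 of the 56 arrays in the series. All 7 were chosen by the line and the treatment in their titles. RS4;11 and SEM are B-cell precursor acute lymphoblastic leukaemia lines with the t(4;11) translocation, and REH is a B-cell precursor line with the t(12;21) translocation that joins ETV6 to RUNX1 and without a normal ETV6 allele. Cells had been kept in DMSO for 6 days. RS4;11 and REH grew in RPMI 1640 and SEM in IMDM, all with fetal calf serum. Each group rests on cell lines and not on patients, so the fusion, the culture medium of SEM and everything else that separates these lines cannot be told apart, and a p-value measures the spread between arrays of a line. In bulk RNA, fewer cells with a transcript and less of it per cell cannot be told apart. The series also holds arrays of the same lines after 6 days of 3 µM EPZ004777, a DOT1L inhibitor, 10 µM MI-2-2, a menin inhibitor, or the combination of both. Those arrays were used here only to see the same line differences in other cultures.

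KMT2A encodes a histone methyltransferase that keeps developmental genes active in blood stem cells. Fusion to AFF1 joins its DNA-binding part to a member of the transcription elongation machinery, and the fusion protein needs menin for chromatin binding and recruits DOT1L, which methylates histone H3 within gene bodies. KMT2A-AFF1 leukaemia resembles an early B-cell precursor, typically lacks CD10, carries some myeloid antigens, and is known for high MEIS1, FLT3 and HOXA expression, while ETV6-RUNX1 leukaemia has the surface of a common B-cell precursor with CD10.

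Signals are log2 values, and a signal under the 40th percentile of an array (5.06) is called dim below. Values are given for replicates 2 and 3 of RS4;11 and SEM and for replicates 1, 2 and 3 of REH, in that order. The B-lineage identity of all 3 lines was borne by bright PAX5 and EBF1, the transcription factors that commit cells to the B lineage. PAX5 had 11.34 and 11.46 in RS4;11 and 11.75 and 11.79 in SEM, against 11.19, 11.38 and 11.49 in REH. The myeloid markers CD14, ELANE and PRTN3, the T-cell markers CD3D, CD3E and CD3G and the erythroid marker ALAS2 did not pass the filter for signal in these arrays. Of the longer lists, 17 of 26 myeloid and 7 of 15 T and NK cell genes did pass, and MPO, ITGAM, CEBPA, NKG7, LCK and ZAP70 are described below.

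REH replicate 1 went partly against its label, and this bears on many of the genes described below as higher in the KMT2A-AFF1 lines. Across 40 genes that were bright (10 or more) on all RS4;11 and SEM arrays and dim on REH replicates 2 and 3, the median signal on REH replicate 1 was 6.05, against 3.54 and 3.79 on replicates 2 and 3. On that array 37 of the 40 genes were above the dim threshold and 36 were at least 1 log2 unit above the mean of the other REH arrays. Its excess was a median of 2.17% of the RS4;11 and SEM signal on the linear scale. Of the 9 drug-treated REH arrays, 8 had medians of 3.56 to 3.68 over these genes, and replicate 2 of the combination had 4.35. Among 2 genes bright in RS4;11 and at least 4 log2 units lower in SEM, the median on REH replicate 1 was 8.63, against 3.99 on DMSO replicates 2 and 3, and replicate 2 of the combination had 5.19. Among 10 genes bright in SEM and at least 4 log2 units lower in RS4;11, replicate 1 had a median of 4.13, against 4.22 and 4.26. Among 61 genes bright in MOLM-13, a KMT2A-MLLT3 line on the same array type, it had 3.58, against 3.62 and 3.56. REH replicate 1 thus carried signal for genes bright in RS4;11, and where it came from was not tested. These gene sets were chosen after the values had been seen. Counts and large differences on the higher side are therefore given with and without this array. Of 77 named genes called higher, 55 moved by less than 0.2 log2 units when it was left out on the same probe sets, and values without it are given for those of the others that the results turn on.

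**Figure D1:**
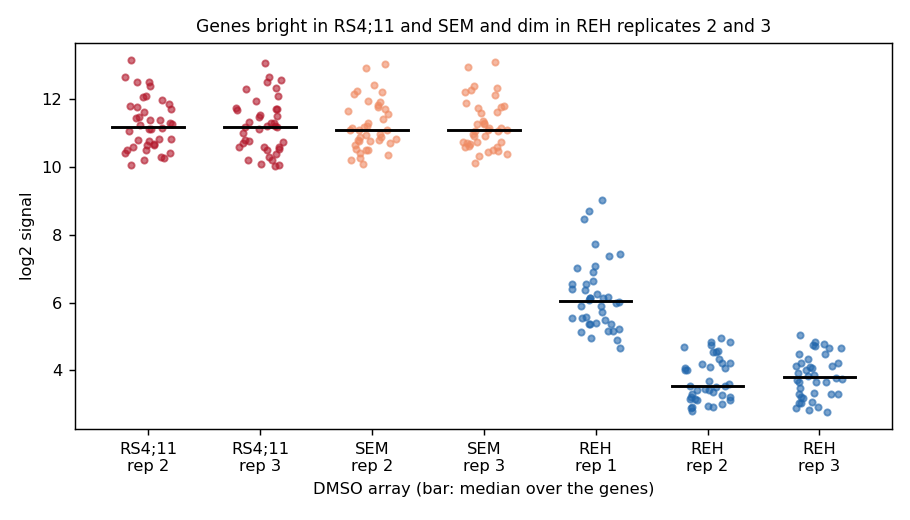
Log2 signal (vertical axis) of 40 genes on each DMSO array (horizontal axis), 1 point per gene, with the bar at the median. RS4;11 and SEM arrays are all at 10 or more by the choice of genes, REH replicates 2 and 3 have medians of 3.54 and 3.79, and REH replicate 1 lies between them with a median of 6.05.

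Array quality also differed within REH. The 3′ minus 5′ signal of the actin control was 2.42 and 2.40 in RS4;11 and 2.41 and 2.48 in SEM, against 3.11, 2.75 and 3.65 in REH, with the highest value on replicate 3. The SD of an array from its line's mean was 0.094 in RS4;11 and 0.089 in SEM, against 0.187 to 0.266 in REH. With 2 arrays both lie equally far from their mean, so these values are not on the same footing as those of 3 REH arrays. The part of array quality in the differences below was not tested. RS4;11 and SEM arrays correlated with each other at 0.930 to 0.931 over the genes tested, and with REH arrays at 0.853 to 0.877.

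Of 14292 genes tested, 6201 differed between the KMT2A-AFF1 lines and REH with RS4;11 and SEM on the same side, or 43.4% of all. This shared call means an adjusted p under 0.05 (limma, Benjamini-Hochberg over all genes) for the mean of RS4;11 and SEM against REH, with each line averaged first. The KMT2A-AFF1 lines were higher for 2660 genes, or 18.6%, and lower for 3541, or 24.8%. The excess on the lower side depended on the REH arrays, with 3458 higher and 3544 lower without REH replicate 3, and 3290 and 3260 without REH replicates 1 and 3. The median difference over all genes was -0.01. Regardless of side, 6565 genes passed the test, or 45.9%. On 5437 of the shared calls, or 38.0% of genes, the arrays of the groups did not overlap. A size of at least 1 log2 unit was reached by 1028 genes on the higher side, or 7.19%, and 1482 on the lower side, or 10.4%. Without REH replicate 1 the calls were 6285, or 44.0%, with 2572 higher, or 18.0%, and 3713 lower, or 26.0%, and 2373 and 3289 genes were called on both occasions. A difference of at least 4 log2 units, which is 16-fold, was found for 159 genes on the higher side, or 1.11%, and for 129 on the lower side, or 0.903%. With so many genes called, a list whose share is near these percentages is not set apart by its count.

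Established targets of KMT2A fusions were mostly brighter in both KMT2A-AFF1 lines than in REH. Of the 24 listed targets that were tested, 15 were higher (62.5%, against 18.6% of all genes), 1 was lower and 8 were not called. The median difference was 1.24, against -0.01 over all genes. Without REH replicate 1 the counts were 16 higher and 2 lower. This list and those below were chosen with earlier results of these data known, so their counts describe the lines and are not an independent test. MEIS1, a homeodomain cofactor of HOX proteins and the best-known target, had 12.08 and 12.09 in RS4;11 and 11.78 and 11.81 in SEM, against 7.09, 3.31 and 3.29 in REH. The groups did not overlap, and the REH value that came nearest was replicate 1. The difference was 7.38 ± 0.86 (SE, adjusted p = 0.000228, limma), or 166-fold, and without REH replicate 1 it was 8.64 ± 0.08, or 399-fold.

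Other targets followed the same order of lines. RUNX2, a RUNX family transcription factor, had 11.95 and 11.90 in RS4;11 and 12.63 and 12.69 in SEM, against 7.09, 5.79 and 5.54 in REH. LAMP5, a lysosome-associated membrane protein, had 12.11 and 12.09 in RS4;11 and 12.20 and 12.17 in SEM, against 7.13, 5.18 and 5.67 in REH. Each differed by 6.15, and by 6.63 and 6.72 without REH replicate 1, which was again the highest REH array. HMGA2, a chromatin architecture protein, had 10.18 and 10.06 in RS4;11 and 10.76 and 10.76 in SEM, against 6.50, 6.65 and 6.92 in REH. For HMGA2 replicate 1 was the lowest of the REH arrays, and the difference of 3.75 ± 0.12 (SE, adjusted p = 2.17e-07, limma) was 3.66 without it. Averaged over probe sets the differences were smaller and still called, at 2.88 for RUNX2 and 1.61 for HMGA2.

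Targets that REH also expressed differed by less. PROM1, which encodes the stem-cell surface protein CD133, had 13.38 and 13.44 in RS4;11 and 13.42 and 13.48 in SEM, against 11.29, 10.77 and 10.70 in REH, a difference of 2.51 ± 0.15 (SE). PBX3, a partner of MEIS1 and HOX proteins, had 11.49 and 11.55 in RS4;11 and 10.72 and 10.71 in SEM, against 8.96, 9.03 and 9.07 in REH. FLT3, a receptor tyrosine kinase of early progenitors, had 11.22 and 11.38 in RS4;11 and 13.07 and 13.06 in SEM, against 11.08, 10.60 and 10.96 in REH. Most of the FLT3 difference of 1.30 ± 0.13 (SE) lay in SEM, with RS4;11 minus SEM at -1.77 (adjusted p = 0.000238, limma), while RS4;11 against REH had an adjusted p of 0.0761.

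Several genes of the list were bright in all 3 lines and were not called. MEF2C, a transcription factor of blood progenitors, had 13.35 and 13.35 in RS4;11 and 13.34 and 13.31 in SEM, against 13.22, 13.23 and 13.21 in REH, and its difference of 0.12 ± 0.09 (SE) had an adjusted p of 0.316 (limma). CDK6, a G1 cyclin-dependent kinase, differed by 0.06 ± 0.09 and MYB, a progenitor transcription factor, by -0.19 ± 0.09. These 3 genes were therefore bright without being called. BCL2, the target of venetoclax, differed by -0.25 with all arrays and was called lower, at -0.29, without REH replicate 1. TCF4, an E protein of B-cell and dendritic-cell development, was the listed target that fell: it had 10.12 and 9.95 in RS4;11 and 8.16 and 8.20 in SEM, against 12.78, 12.87 and 12.22 in REH. IGF2BP2, an RNA-binding protein, lay on opposite sides, with 12.70 and 12.51 in RS4;11 and 7.06 and 7.27 in SEM, against 8.99, 8.40 and 8.56 in REH. Of the HOXA cluster 1 gene was tested here: HOXA2, for which the KMT2A-AFF1 lines were lower by 1.14, and the other HOXA genes were not analysed here.

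**Figure D2:**
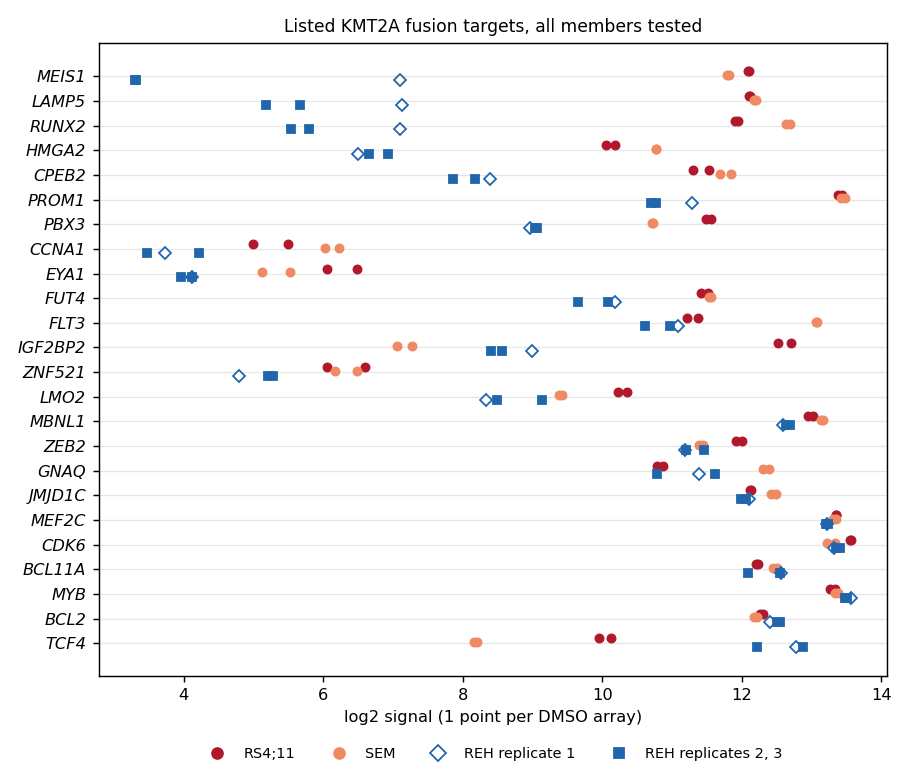
Log2 signal (horizontal axis) of the 24 listed KMT2A fusion targets tested (vertical axis, ordered by the difference between the KMT2A-AFF1 lines and REH), 1 point per DMSO array. MEIS1, LAMP5 and RUNX2 stand furthest from REH, where the open diamond of replicate 1 is the highest REH point, and TCF4 at the bottom is brighter in REH.

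KMT2A and AFF1 did not pass the test between the lines, while ETV6 did. KMT2A had 11.70 and 11.59 in RS4;11 and 11.13 and 11.31 in SEM, against 11.59, 11.39 and 10.99 in REH, a difference of 0.11 ± 0.15 (SE, adjusted p = 0.586, limma). AFF1 differed by 0.07 ± 0.09 (SE), and by 0.38 when all of its probe sets were averaged, which was called. ETV6, a transcriptional repressor and the gene broken in REH, had 9.34 and 8.97 in RS4;11 and 9.19 and 9.21 in SEM, against 5.27, 4.51 and 5.24 in REH, a difference of 4.17 ± 0.20 (SE, adjusted p = 1.43e-06, limma). RUNX1 was not analysed here.

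Genes of the protein complexes that carry the fusion, among them menin, DOT1L and the elongation factors, were near the background: 2 of 20 were higher and 4 lower. DOT1L had 8.65 and 8.72 in RS4;11 and 8.46 and 8.48 in SEM, against 8.39, 8.44 and 9.11 in REH, a difference of -0.07 ± 0.18 (SE). MEN1, which encodes menin, was called lower with all arrays, where it fell by 0.69, and without REH replicate 1 its difference of -0.63 was not called (adjusted p = 0.0557, limma).

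Surface and cytoskeletal markers of KMT2A-rearranged leukaemia were mostly on the higher side. This list is not separate from that of the fusion targets, since LAMP5 is in both. Of 23 tested, 16 were higher (69.6%, against 18.6% of all genes) and 2 lower, with a median difference of 1.18. Without REH replicate 1 the counts were 15 and 3. S100A10, a small calcium-binding-type protein that pairs with annexin A2, had 12.38 and 12.32 in RS4;11 and 12.43 and 12.41 in SEM, against 7.42, 3.12 and 3.65 in REH. It had the highest difference of all shared calls, at 7.66 ± 0.92 (SE), and 9.0 ± 0.15 without REH replicate 1 and 4.66 with averaged probe sets. Its partner ANXA2 had 12.58 and 12.63 in RS4;11 and 13.18 and 13.15 in SEM, against 10.62, 10.69 and 10.78 in REH, a difference of 2.19. CD44, the hyaluronan receptor, had 11.47 and 11.51 in RS4;11 and 11.57 and 11.60 in SEM, against 6.26, 4.07 and 3.82 in REH, and its difference of 6.82 was 3.99 with averaged probe sets. CSPG4, whose product NG2 is the antigen used clinically to recognise KMT2A rearrangement, had 9.11 and 9.18 in RS4;11 and 9.22 and 9.37 in SEM, against 5.22, 4.84 and 5.28 in REH. The CSPG4 difference of 4.11 ± 0.13 (SE, adjusted p = 2.01e-07, limma) was 4.16 without REH replicate 1. LGALS1, a galectin, differed by 1.28, and S100A4 and S100A6 by 2.49 and 2.80. VIM, which encodes vimentin, was not called, with a difference of 0.42 ± 0.17 (SE). DYRK3 and ADGRG1 were the 2 members on the lower side and fell by 2.83 and 0.70.

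Adhesion and integrin genes are a list that also holds CD44 and CSPG4. Of 22 members 8 were higher (36.4%, against 18.6% of all genes) and 2 lower (9.09%, against 24.8%). Without REH replicate 1 the counts were 10 and 1. PECAM1, an adhesion molecule of blood and endothelium, had 7.89 and 7.91 in RS4;11 and 11.53 and 11.49 in SEM, against 6.00, 5.90 and 5.37 in REH. Its difference from REH ranged from 1.99 to 4.07 over the settings of the processing. ITGAL and ITGB7, integrin chains of leukocytes, differed by 3.93 and 2.04. CXCR4 and ITGA4, which hold blasts in the marrow, were bright in every line and not called, with differences of -0.24 and -0.09.

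Genes that mark ETV6-RUNX1 leukaemia were brighter in REH almost throughout. Of 21 tested, 18 were lower in the KMT2A-AFF1 lines (85.7%, against 24.8% of all genes) and 1, IGFBP7, was higher. The median difference was -3.04, and the counts were the same without REH replicate 1. CLIC5, a chloride channel family protein tied to the cytoskeleton, had 2.58 and 2.44 in RS4;11 and 2.54 and 2.57 in SEM, against 10.41, 10.66 and 10.75 in REH. Its difference of -8.08 ± 0.11 (SE, adjusted p = 1.55e-08, limma) was -8.17 without REH replicate 1 on the same probe set. It rests on that probe set: another was taken when any REH array was left out of the choice, with differences of -1.27 to -1.45, and its probe sets averaged to -2.78. DSC3 and DSC2, desmosomal cadherins, differed by -7.05 and -3.97, and DSC2 ranged from -4.27 to -1.21 over the settings of the processing. For DSC2 the KMT2A-AFF1 lines also differed from each other, with 3.67 and 4.02 in RS4;11 and 7.88 and 8.01 in SEM, against 10.05, 10.17 and 9.37 in REH. EPOR, the erythropoietin receptor, had 7.62 and 7.33 in RS4;11 and 6.44 and 6.51 in SEM, against 10.84, 10.28 and 10.54 in REH. IGF2BP1, an RNA-binding protein of fetal tissues, differed by -5.26, CBFA2T3, a corepressor, by -4.09, and DDIT4L, a stress-regulated gene, by -5.89.

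**Figure D3:**
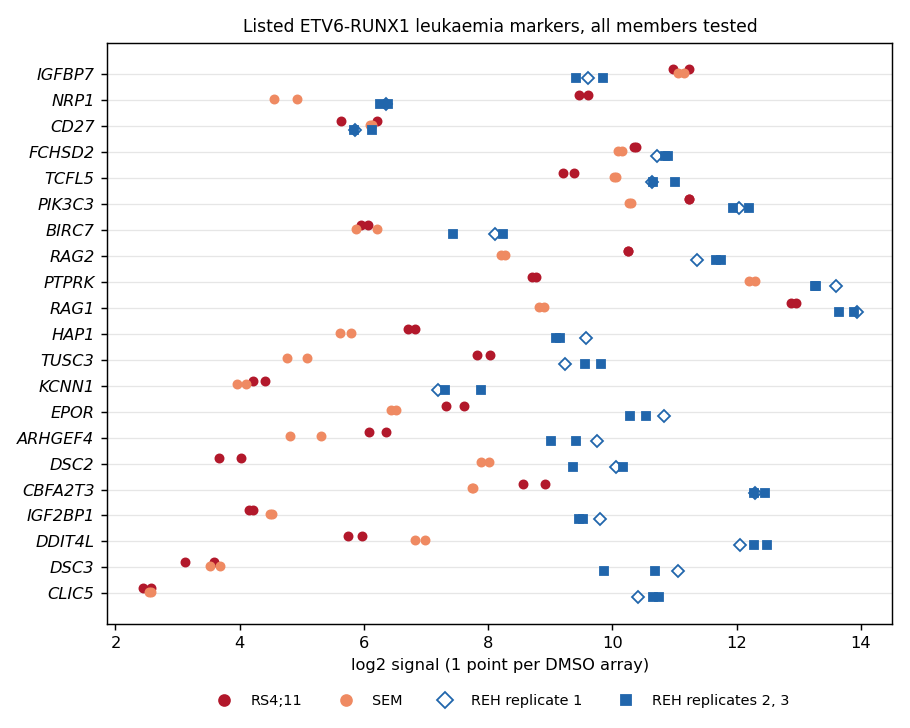
Log2 signal (horizontal axis) of the 21 listed ETV6-RUNX1 leukaemia markers tested (vertical axis, ordered by difference), 1 point per DMSO array. For 18 genes the REH points lie to the right of RS4;11 and SEM, IGFBP7 at the top is the reverse, and NRP1 has RS4;11 and SEM on opposite sides of REH.

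For MEIS1 and RUNX2, brighter in the KMT2A-AFF1 lines, and for CLIC5 and MME, brighter in REH, the 250 bases before the first listed start are shown because these genes carry the contrast and because REH has a fusion of a RUNX protein. They are from RefSeq (GRCh38.p14), 5′ to 3′ on the gene's strand, in lower case, with capitals for the RUNX core motif TGTGGT or its reverse complement ACCACA.
MEIS1, chr2:66434875-66435124, plus strand: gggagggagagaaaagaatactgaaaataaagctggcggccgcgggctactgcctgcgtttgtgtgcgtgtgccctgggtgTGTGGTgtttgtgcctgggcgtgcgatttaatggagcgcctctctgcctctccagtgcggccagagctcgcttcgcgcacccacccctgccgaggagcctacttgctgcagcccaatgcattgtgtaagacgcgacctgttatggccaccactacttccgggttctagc
RUNX2, chr6:45328080-45328329, plus strand: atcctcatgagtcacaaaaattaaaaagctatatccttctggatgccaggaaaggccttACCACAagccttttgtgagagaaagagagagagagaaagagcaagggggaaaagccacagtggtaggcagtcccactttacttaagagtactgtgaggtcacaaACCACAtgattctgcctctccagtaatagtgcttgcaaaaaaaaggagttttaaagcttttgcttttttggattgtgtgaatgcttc
CLIC5, chr6:46129820-46130069, minus strand: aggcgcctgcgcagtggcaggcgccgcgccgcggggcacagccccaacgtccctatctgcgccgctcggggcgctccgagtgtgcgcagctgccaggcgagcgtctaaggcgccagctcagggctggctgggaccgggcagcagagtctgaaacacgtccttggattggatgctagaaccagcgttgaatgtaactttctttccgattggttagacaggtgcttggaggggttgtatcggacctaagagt
MME, chr3:155079422-155079671, plus strand: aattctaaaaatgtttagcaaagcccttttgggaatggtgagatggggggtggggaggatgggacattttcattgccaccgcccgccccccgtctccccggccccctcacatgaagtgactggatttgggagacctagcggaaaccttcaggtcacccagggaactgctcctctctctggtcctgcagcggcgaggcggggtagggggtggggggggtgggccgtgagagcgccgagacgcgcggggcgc
The motif, searched on both strands, was found once in MEIS1, 2 times in RUNX2 and not in the windows of CLIC5 and MME. It is short and common. It lay in 7.36% of 2080 windows of genes higher in the KMT2A-AFF1 lines and in 7.95% of 2857 windows of genes lower there, against 8.04% of the windows of the 11448 tested genes that had an entry. Among genes that differed by at least 4 log2 units it lay in 10.7% of 122 windows on the higher side and 7.77% of 103 on the lower side. RUNX2 had no CG dinucleotide in its window and MEIS1 had 16, against a median of 20 in tested genes.

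The B-cell programme was present in all 3 lines, but its precursor enzymes, its signalling parts and CD10 were arranged differently. Among B-lineage transcription factors 4 of 22 were higher and 5 lower, which is near the background. EBF1, PAX5, TCF3, IKZF1 and LEF1 were not called, with differences of -0.14 to 0.23. IRF4, which with IRF8 drives pre-B cells towards light chain rearrangement, had 10.86 and 10.87 in RS4;11 and 10.92 and 10.93 in SEM, against 6.53, 6.26 and 6.22 in REH. IRF8 had 11.08 and 10.99 in RS4;11 and 12.52 and 12.46 in SEM, against 9.06, 9.47 and 9.34 in REH. Both were higher on all arrays of the KMT2A-AFF1 lines, and the IRF4 difference ranged from 1.98 to 4.66 over the settings of the processing. FOXO1, a factor that activates the RAG genes, had 11.39 and 11.41 in RS4;11 and 8.77 and 8.91 in SEM, against 12.41, 12.53 and 12.49 in REH. BACH2, a repressor of B-cell differentiation, fell by 1.74.

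All 3 genes of the recombination list were lower in the KMT2A-AFF1 lines, and most so in SEM. DNTT, the terminal transferase that adds bases at immunoglobulin joints, had 12.72 and 12.74 in RS4;11 and 7.86 and 7.96 in SEM, against 14.14, 14.12 and 14.25 in REH. RAG1, part of the recombinase, had 12.96 and 12.88 in RS4;11 and 8.82 and 8.90 in SEM, against 13.93, 13.89 and 13.65 in REH. RAG2 fell by 2.34. RS4;11 thus stood close to REH for these genes and SEM far below, and the RS4;11 minus SEM differences of 4.82 for DNTT and 4.06 for RAG1 passed the test (adjusted p = 1.7e-07 and 6.66e-07, limma).

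Of the pre-B cell receptor list 7 of 17 genes were higher (41.2%, against 18.6% of all genes) and 5 lower (29.4%, against 24.8%). The counts were the same without REH replicate 1. VPREB1, the surrogate light chain, had 12.51 and 12.59 in RS4;11 and 11.96 and 11.75 in SEM, against 7.74, 3.54 and 3.66 in REH, a difference of 7.22 ± 0.93 (SE), and 8.60 ± 0.10 without REH replicate 1. Its partner IGLL1 was bright in all lines and fell by 0.28, a call that was lost without REH replicate 1 (adjusted p = 0.0625, limma). REH thus had bright IGLL1 and, on 2 of its 3 arrays, dim VPREB1. BLNK, the adaptor that links the receptor to its kinases, had 10.11 and 10.09 in RS4;11 and 6.49 and 6.68 in SEM, against 12.75, 12.46 and 12.71 in REH. LYN, a SRC family kinase of the receptor, was higher by 2.68, and BTK, the kinase below BLNK, by 0.56. CD79A and CD79B, the signalling chains, fell by 0.96 and 1.89. For CD79B the probe sets whose names do not end in _s_at or _x_at gave a difference of 0.23 that was not called, so its direction rests on the probe set.

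MME, which encodes CD10, had 5.85 and 5.74 in RS4;11 and 5.11 and 5.23 in SEM, against 12.99, 12.89 and 12.97 in REH. The difference of -7.46 ± 0.10 (SE, adjusted p = 1.55e-08, limma) is 177-fold, and CD10 negativity is the textbook surface phenotype of KMT2A-AFF1 leukaemia. Of the surface list 6 of 18 genes were higher (33.3%, against 18.6% of all genes) and 5 lower (27.8%, against 24.8%). Without REH replicate 1 the counts were 5 and 5. FCRLA and CD37 were higher by 2.71 and 2.54, and CD9, a tetraspanin, by 2.43. CD52, the target of alemtuzumab, fell by 1.52 and CD22, the target of inotuzumab, by 0.66. CD38, the target of daratumumab, had 9.05 and 8.93 in RS4;11 and 6.46 and 6.29 in SEM, against 8.94, 8.78 and 8.78 in REH, so SEM was low and RS4;11 did not differ from REH beyond the test (adjusted p = 0.348, limma).

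Genes for antigen presentation on MHC class II were lower in the KMT2A-AFF1 lines. Of 14 tested, 10 were lower (71.4%, against 24.8% of all genes) and 2 higher, with a median difference of -0.64. Without REH replicate 1 the counts were 9 and 2. HLA-DMB, a chain of the peptide-loading chaperone, had 9.15 and 9.22 in RS4;11 and 8.18 and 8.08 in SEM, against 10.78, 10.19 and 10.49 in REH. HLA-DRB1, a chain of the main class II molecule, lay between 11.95 and 12.02 on the RS4;11 and SEM arrays, against 13.13, 12.77 and 12.68 in REH. REH replicate 1 was the highest array for both. HLA-DQA1 ran the other way, with 9.95 and 9.95 in RS4;11 and 8.60 and 8.49 in SEM, against 4.63, 3.29 and 3.18 in REH, a difference of 5.54, which was 6.01 without REH replicate 1 and 1.81 with averaged probe sets. CIITA, the master activator of class II, was higher by 0.38. For class I processing 1 of 15 genes, PSMB10, was higher and 4 were lower, which is near the background.

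**Figure D4:**
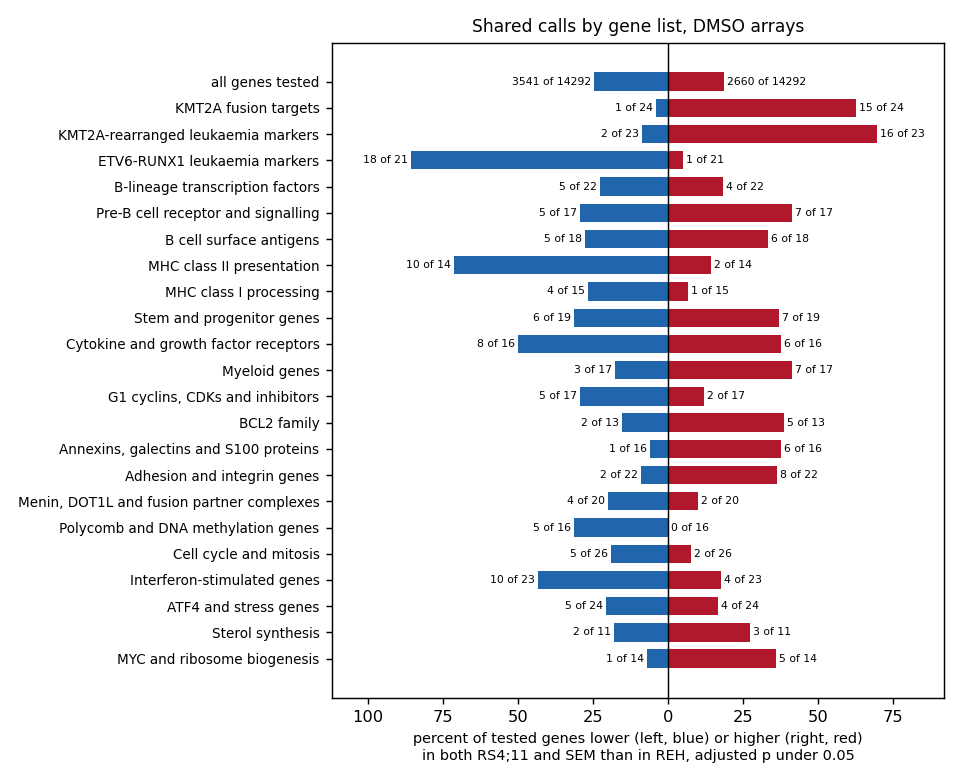
Percent of the tested genes of each list of at least 10 tested members with a shared call (horizontal axis, lower in the KMT2A-AFF1 lines to the left, higher to the right), with counts at the bars and all genes tested on the top row. Among these lists KMT2A-rearranged leukaemia markers and KMT2A fusion targets extend furthest to the right, at 16 of 23 and 15 of 24, and ETV6-RUNX1 markers and MHC class II furthest to the left, at 18 of 21 and 10 of 14.

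Stem and progenitor genes moved both ways, with or without REH replicate 1. Of 19 tested, 7 were higher (36.8%, against 18.6% of all genes) and 6 lower (31.6%, against 24.8%). LIN28B, an RNA-binding protein of fetal blood progenitors, had 9.84 and 9.56 in RS4;11 and 7.95 and 7.72 in SEM, against 4.76, 4.30 and 5.21 in REH. MN1, a transcriptional coactivator, had 4.60 and 4.23 in RS4;11 and 4.88 and 4.99 in SEM, against 10.31, 10.66 and 10.48 in REH. MECOM, a zinc-finger factor of stem cells, had 6.66 and 7.17 in RS4;11 and 4.13 and 4.72 in SEM, against 11.08, 11.38 and 11.10 in REH, a difference of -5.52, which was -1.81 with averaged probe sets. MN1 and MECOM are both known as oncogenes of myeloid leukaemia, and here they were bright in REH. ERG, an ETS factor, fell by 1.10, and CD34 did not pass the test, with a difference of 0.26.

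Myeloid genes were called on both sides, more often higher. Of 17 tested, 7 were higher (41.2%, against 18.6% of all genes) and 3 lower (17.6%, against 24.8%), with or without REH replicate 1. CEBPA, the factor that starts myeloid differentiation, had 7.61 and 7.67 in RS4;11 and 8.90 and 8.80 in SEM, against 4.64, 4.63 and 4.69 in REH. MPO, myeloperoxidase, had 4.76 and 4.77 in RS4;11 and 4.37 and 4.67 in SEM, against 10.85, 10.21 and 10.95 in REH, a difference of -6.03 ± 0.19 (SE). ITGAM, which encodes CD11b, fell by 3.76. The called myeloid genes were thus not all on 1 side: the regulator CEBPA was brighter in the KMT2A-AFF1 lines and the granule enzyme MPO in REH. CYBB, a subunit of the phagocyte oxidase, was higher by 3.09 on its brightest probe set, but its probe sets averaged to -0.53. Of the T and NK cell list 5 of 7 tested genes were higher (71.4%, against 18.6% of all genes), and 3 without REH replicate 1. Only 7 of the 15 listed genes passed the filter, so this share describes few genes. NCAM1 and CD7, with differences of 0.39 and 0.32, were the calls lost without that array. ZAP70, a T-cell kinase also found in B-cell leukaemia, differed by 3.38, with REH about the dim threshold at 4.96, 5.02 and 5.10. NKG7 was higher by 1.91 and LCK by 1.32, while TRAT1 fell by 2.62 and was dim in both KMT2A-AFF1 lines. Of the other lineages, 1 of 6 erythroid and megakaryocyte genes was called, AHSP, and 0 without REH replicate 1. Of 4 stromal and epithelial genes 1 was higher, PDGFRB by 0.79, and 1 was lower, COL1A1, which reversed to 0.47 without REH replicates 1 and 3. The part of other cell types in these differences was not tested.

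Of the cytokine receptors 6 of 16 were higher (37.5%, against 18.6% of all genes) and 8 lower (50%, against 24.8%). Without REH replicate 1 the counts were 7 and 7. Besides EPOR, KIT fell by 2.88 and TNFRSF1A by 1.88, while TNFRSF1B, the second TNF receptor, was higher by 1.68. IL7R, the receptor on which B-cell precursors depend, was bright in all lines and fell by 0.35.

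Apoptosis and cell-cycle genes differed at a few members. In the BCL2 family 5 of 13 genes were higher (38.5%, against 18.6% of all genes) and 2 lower (15.4%, against 24.8%). Without REH replicate 1 the counts were 5 and 4. The higher ones, BMF, PMAIP1, BID, BCL2L11 and BIK, encode cell-death promoters. The share of death promoters in the whole list was not counted, so their number does not set them apart. For BCL2L11, RS4;11 alone against REH had an adjusted p of 0.212 (limma). BMF had 8.0 and 7.76 in RS4;11 and 9.21 and 9.22 in SEM, against 6.27, 6.20 and 6.68 in REH. HRK, another BH3-only death gene, ran opposite, with 4.98 and 5.07 in RS4;11 and 4.99 and 5.29 in SEM, against 10.23, 10.64 and 8.87 in REH. Of the G1 genes 2 of 17 were higher (11.8%) and 5 lower (29.4%), which is near the 18.6% and 24.8% of all genes. CCND2, cyclin D2, had 5.65 and 5.79 in RS4;11 and 4.79 and 4.63 in SEM, against 8.95, 9.36 and 8.95 in REH. The CCND2 difference ranged from -4.14 to -1.19 over the settings of the processing. CCNE1, cyclin E, fell by 1.47. For CDKN1C the difference of -3.32 was 0.0378 without REH replicate 3, and was not called without REH replicate 1 or 2, where another of its probe sets was taken. Genes of S phase and mitosis were near the background on both sides, with 2 of 26 higher and 5 lower, and MKI67 and TOP2A were not called. Polycomb and DNA methylation genes had 0 of 16 higher, against 18.6% of all genes. On the lower side they had 5, or 31.2%, which is near the 24.8% of all genes. TET1 was the furthest, with 5.72 and 5.71 in RS4;11 and 4.62 and 4.69 in SEM, against 7.95, 8.33 and 8.64 in REH.

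Interferon-stimulated genes were more often on the lower side, with a median difference of -0.35. Of 23 tested, 10 were lower (43.5%, against 24.8% of all genes) and 4 higher (17.4%, against 18.6%). MX1, an antiviral GTPase, had 6.50 and 6.68 in RS4;11 and 5.34 and 4.98 in SEM, against 9.46, 9.04 and 9.38 in REH. MX2, RSAD2 and IFIT1, which also act against viruses, fell by 1.97, 1.73 and 1.88, and ISG20 was higher by 1.88. Counts were the same without REH replicate 1. MYC and ribosome biogenesis genes had 5 of 14 higher (35.7%, against 18.6%) and 1 lower (7.14%, against 24.8%), with or without REH replicate 1. MYC had 11.46 and 11.32 in RS4;11 and 11.70 and 11.83 in SEM, against 10.57, 10.47 and 10.65 in REH. ATF4 stress genes were near the background, with 4 of 24 higher and 5 lower. ASNS, asparagine synthetase, which bears on asparaginase treatment of this leukaemia, was split: 8.91 and 9.03 in RS4;11 and 12.37 and 12.39 in SEM, against 11.72, 11.71 and 12.10 in REH. Sterol synthesis genes had 3 of 11 higher (27.3%) and 2 lower (18.2%), against 18.6% and 24.8% of all genes. Annexins, galectins and S100 proteins had 6 of 16 higher (37.5%) and 1 lower (6.25%), most of them described above.

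Among the 15 highest shared differences named here, which pass over XIST, Y-linked genes and uncharacterised symbols, were genes with no place in these lists. SCD, the desaturase that makes monounsaturated fatty acids, had 12.52 and 12.51 in RS4;11 and 12.24 and 12.34 in SEM, against 8.47, 3.14 and 3.75 in REH. BCAT1, a branched-chain amino acid transaminase, had 13.16 and 13.07 in RS4;11 and 13.05 and 13.12 in SEM, against 9.03, 4.21 and 4.49 in REH. TWIST1, a basic helix-loop-helix factor, had 12.65 and 12.67 in RS4;11 and 12.92 and 12.96 in SEM, against 8.71, 4.53 and 4.65 in REH. SCD, BCAT1 and TWIST1 were bright in both KMT2A-AFF1 lines and raised on REH replicate 1 alone among the REH DMSO arrays, and without it they differed by 8.96, 8.75 and 8.21. The 12 others, S100A10, PRSS12, TPD52, MEIS1, TES, VPREB1, NUDT19, DEPDC1, SNX10, PTCH1, CD44 and SLC9B2, had differences of 6.81 to 7.66 with all arrays and of 7.59 to 9.0 without REH replicate 1.

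On the lower side the 15 furthest genes, named by the same rule, lay between 8.89 and 13.72 on the REH arrays. PCLO, a presynaptic scaffold protein, had 3.86 and 3.92 in RS4;11 and 4.78 and 5.23 in SEM, against 13.72, 13.66 and 13.71 in REH, the largest difference of any shared call at -9.25 ± 0.12 (SE). GABRA4, a neuronal GABA receptor subunit, had 4.03 and 4.08 in RS4;11 and 4.21 and 4.52 in SEM, against 11.41, 11.33 and 11.42 in REH. POU4F1, a homeodomain factor of sensory neurons, fell by 6.36. AKAP12, a scaffold for protein kinase A, fell by 7.12. CYB5R2, TSPYL5, ELFN1, SLC51A, SLC16A14, SAMSN1, RUBCNL and SHROOM3 fell by 6.31 to 8.07. Unlike the higher side, these values stayed close on the same probe sets when REH replicate 1 was left out, at -6.17 to -9.24 for all 15.

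RS4;11 and SEM also differed from each other. Against REH alone 5596 genes, or 39.2%, passed for RS4;11 and 5850, or 40.9%, for SEM. Between the KMT2A-AFF1 lines 2738 genes, or 19.2%, passed the test, 1581 (11.1%) higher and 1157 (8.10%) lower in RS4;11, and 3597 passed without REH replicate 1. The median absolute difference over all genes was 0.343 for the KMT2A-AFF1 lines against REH and 0.234 for RS4;11 against SEM. Of the 6201 shared calls, 1651 also differed between RS4;11 and SEM, or 26.6%. The test between RS4;11 and SEM used a spread per gene pooled over all 3 lines, so the REH arrays entered its error. For MEIS1 its SE was 1.12 for a difference of 0.29. With array weights, which count REH replicates 1 and 3 less, 6286 genes passed. The 19.2% and 26.6% thus depend on the REH arrays. Each line alone passed the test against REH in the same direction for 3831 genes, or 26.8%. Both passed on opposite sides for 192, or 1.34%, a count that, unlike the 3831, leaves out XIST, Y-linked genes and uncharacterised symbols. The comparisons of RS4;11 and of SEM with REH share the REH arrays.

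The drug-treated arrays gave the same line comparison in cultures that the DMSO comparison did not use. On EPZ004777 arrays 2350 of the 2660 higher genes and 3311 of the 3541 lower genes were called the same way, or 88.3% and 93.5%, against 26.2% and 34.5% of all genes called higher and lower there. On MI-2-2 arrays the shares were 82.7% and 84.7%, against 25.8% and 30.5% of all genes. On combination arrays they were 77.9% and 83.7%, against 24.5% and 31.9%. Opposite calls numbered 2 to 29 in each direction and treatment. All 3 sets of treated arrays gave the same call for 4631 of the 6201 genes, or 74.7%. Since the cells are of the same lines, this repeats the difference between lines and does not separate it from the fusion.

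MEIS1 averaged 12.24 in RS4;11 and 12.02 in SEM, against 3.61 in REH, on EPZ004777 arrays, where REH replicate 1 of the DMSO set plays no part. The MEIS1 difference was 8.52 ± 0.06 (SE) on EPZ004777 arrays, 8.85 ± 0.08 on MI-2-2 arrays and 8.29 ± 0.23 on combination arrays. These values are nearer to the DMSO difference without REH replicate 1, which was 8.64, than to the one with it, which was 7.38. PROM1 differed by 2.06 on EPZ004777 arrays, 2.31 on MI-2-2 arrays and 0.71 on combination arrays. RUNX2 differed by 5.55, 6.28 and 3.70 and HMGA2 by 2.51, 3.52 and 1.78 on the same 3 sets. PROM1, RUNX2 and HMGA2 were closer between the lines on combination arrays than on arrays of either drug alone, a difference between treatments that was not tested. MME differed by -6.70, -6.55 and -5.31, with 8.29 in RS4;11 on combination arrays. Of the 15 fusion targets called higher on DMSO arrays, 14 were called higher on all 3 sets, and of the 18 lower ETV6-RUNX1 markers all 18 were called lower on each of the 3.

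**Figure D5:**
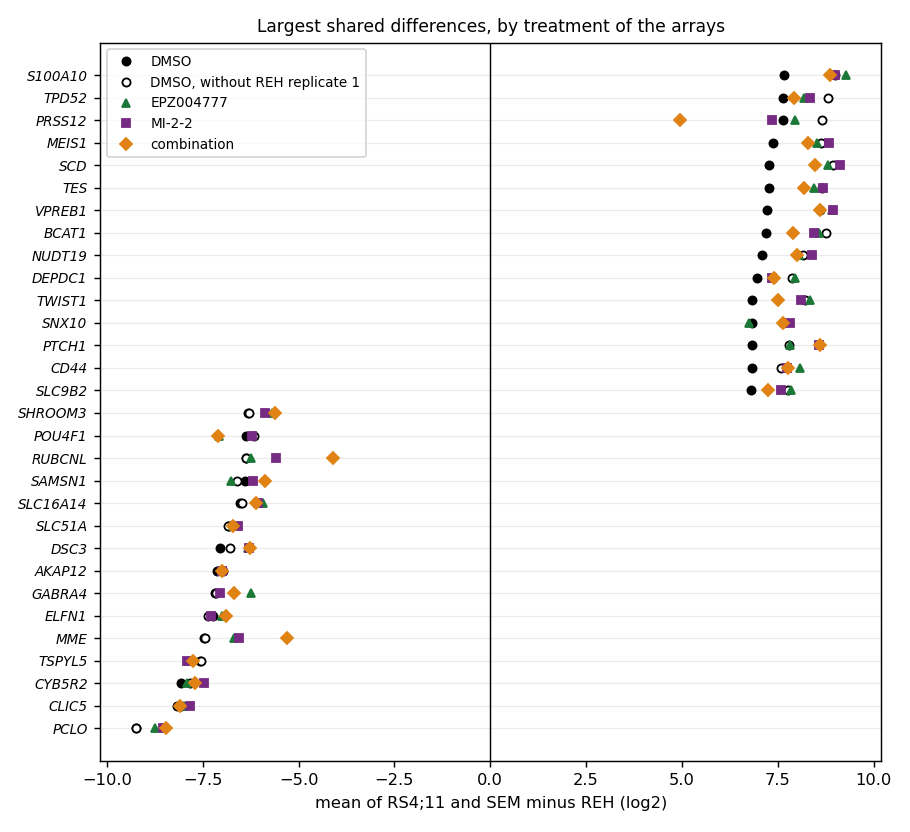
Mean of RS4;11 and SEM minus REH (log2, horizontal axis) for the 15 highest and 15 lowest shared differences on DMSO arrays (vertical axis), with all DMSO arrays (filled circles), without REH replicate 1 (open circles) and on EPZ004777, MI-2-2 and combination arrays. No gene changes side, and on the higher side the treated arrays mostly lie nearer to the open circles, with PRSS12 on combination arrays the lowest.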

How the data were processed

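Total RNA was amplified with the Nugen Ovation system and hybridised to Affymetrix U133 Plus 2.0 arrays, per the labels' protocols. The authors deposited RMA values on the log2 scale, made with affy in R 3.0.2, per the submitters' processing notes. Here the 44 human arrays were quantile normalized once more, because their medians were not equal. Of 54675 probe sets, 41091 had a single gene symbol. Each gene was represented by its probe set with the highest mean, kept if it passed the 40th percentile on at least 2 of the 7 arrays. The 7 DMSO arrays were fitted in 3 groups with limma 3.58.1 in R 4.3.3, and the fit was tested on simulated data. Drug-treated arrays were fitted by treatment on the same genes. RMA files carry no detection calls, and precision is limited by 2 or 3 arrays per group.

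Members and the 27 gene lists were chosen with earlier results of these data known. Named genes were the 15 highest and 15 lowest shared differences with non-overlapping arrays, passing over XIST, Y-linked genes and uncharacterised symbols, up to 6 calls of largest difference per list, 11 fixed genes and 3 genes per direction with RS4;11 and SEM on opposite sides of REH. Every other gene named was chosen after its values were seen. Fits without REH replicate 1 on the same probe sets were added after seeing the data. Alternatives covered normalization, filter, probe set choice, fit and replicates. Replicate numbers were not used to pair the arrays in the main fit. Deviations of replicates 2 and 3 correlated at -0.027 between RS4;11 and SEM, 0.223 between RS4;11 and REH and -0.139 between SEM and REH. With 2 arrays per line these values cannot show whether arrays of the same number share a batch.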

Additional observations from a re-analysis of the deposited data

Results flagged for a closer look

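The effects of RS4;11 and SEM against REH differed for the genes below, by the limma test of RS4;11 minus SEM (Benjamini-Hochberg over all genes). Those named are the 3 genes per direction with the lines called on opposite sides of REH, and the other genes named by rule with a tested difference of at least 3 log2 units. No explanation was tested, and the medium of SEM differed from that of RS4;11 and REH.

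SOCS2, an inhibitor of cytokine signalling, had 11.38 and 11.39 in RS4;11 and 3.93 and 3.60 in SEM, against 9.54, 9.93 and 10.41 in REH, with RS4;11 minus SEM at 7.63. CTPS2, a CTP synthase, had a difference of 6.05 and TNFSF4, the OX40 ligand, of 6.04. ROBO1, the receptor for SLIT guidance proteins, averaged 4.15 in RS4;11 and 12.04 in SEM, against 4.86 in REH, with a difference of -7.89. UGT8, a galactosyltransferase of lipid synthesis, differed by -7.65 and PAWR, a pro-apoptotic protein, by -7.25. On DMSO arrays these 6 genes lay above REH in one KMT2A-AFF1 line and below it in the other. For ROBO1 and PAWR the lower side was a gap between dim signals, with PAWR at 3.71 in RS4;11 against 4.18 in REH. On treated arrays PAWR was called higher in both lines on all 3 sets. SOCS2 was called lower in both on EPZ004777 and combination arrays, and CTPS2, TNFSF4, ROBO1 and UGT8 had no shared call on any set.

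Among genes on the same side of REH in both lines, DNTT differed by 4.82, RAG1 by 4.06 and BLNK by 3.52, each lower in SEM. STC2, a secreted glycoprotein induced by stress, differed by -3.32, PECAM1 by -3.61 and DSC2 by -4.10, each higher in SEM.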

How the results depend on the processing

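Of 168 named genes, 118 kept direction and side of the threshold in every setting run, and 46 lost the call in at least 1. Shared calls numbered 6201, 2510 at an absolute difference of at least 1 log2 unit, 3831 where each line had to pass alone, and 4748 to 7002 with single arrays left out. With the replicate block there were 6053. RS4;11 against REH gave 5596 calls, 3729 at an adjusted p under 0.01, 2584 at 1 log2 unit, 5640 with the replicate block and 3336 to 6787 with single arrays left out, lowest without RS4;11 replicate 3. SEM against REH gave 5850, 2822 at 1 log2 unit, 6022 with the block and 3529 to 6644, lowest without SEM replicate 2. RS4;11 against SEM gave 2738, 5131 with 32 arrays in the fit, 6286 with array weights, 5814 without REH replicates 1 and 3, 1701 at an adjusted p under 0.01, 1492 at 1 log2 unit, 3337 with the block and 1381 to 3627 with single arrays left out, lowest without SEM replicate 3. The block gave 8545, 8309 and 8093 calls on EPZ004777, MI-2-2 and combination arrays. Values as deposited or median-centred moved no list count by more than 2. Directions reversed on another probe set of the gene: without _s_at and _x_at probe sets for CD79B (0.23), IFNGR1 (0.15), CDC6 (0.26) and SC5D (-0.0156), and with averaged probe sets for CYBB (-0.53) and CDK9 (0.0503). CDKN1C ranged from -3.45 to 0.0378 with single arrays left out, with 0.0378 without REH replicate 3, and COL1A1 0.47 without REH replicates 1 and 3. CDC6 gave 0.17, 0.30 and 0.30 without REH replicates 1, 2 and 3, 0.18 without 1 and 3, and 0.14 on deposited values without replicate 1. For CDC6 and CDKN1C, and for CLIC5, another probe set was taken whenever a REH array was left out. For COL1A1 the cause was not tested. With averaged probe sets 30 of 160 named shared calls were smaller in size by over 1 log2 unit, and 2 changed side. RUNX2 (2.88), PTCH1 (2.48), MECOM (-1.81), HLA-DQA1 (1.81) and CLIC5 (-2.78) were among those 30. Over all settings run, other genes kept the call while the size changed. Examples are CCND2 (-4.14 to -1.19), DSC2 (-4.27 to -1.21), DYRK3 (-2.99 to -1.05), IRF4 (1.98 to 4.66), PECAM1 (1.99 to 4.07) and TES (3.94 to 8.74).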
